A study of Homo sapiens with 9 samples.

Results

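The sites described are those listed as N6-methyladenosine (m6A) sites in the zinc finger gene clusters of human chromosome 19. They were taken by position alone, as every listed site of either strand in 7 stretches of build hg19: 9.40 to 9.90, 11.70 to 12.70, 19.75 to 24.40, 36.60 to 38.40, 44.25 to 45.00, 52.35 to 54.00 and 56.60 to 59.10 Mb, called clusters 1 to 7 here and 12.85 Mb long together. They number 43 distinct positions among 4429 in the series, and are compared with the 269 distinct positions elsewhere on chromosome 19. The cells were HepG2, an established line from a human hepatocellular carcinoma, which stably carried a lentiviral non-specific control shRNA or either of 2 shRNAs against SETD2 (shSETD2#1 and shSETD2#2, called hairpin 1 and hairpin 2) after puromycin selection. The labels give 3 replicates per shRNA and name 1 site list for all 3, so each list is treated as pooled and its values carry no error between replicates. A test over sites sets one list, or one part of it, against another. It says nothing of the spread between cultures, and it counts neighbouring sites of a transcript as if they were independent. The series title names miCLIP, in which the antibody is crosslinked to RNA and marks m6A by C-to-T changes nearby, while the protocol describes immunoprecipitation without crosslinking. A C-to-T position is therefore called an m6A site only because the lists name it so.

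KRAB zinc finger proteins are the largest family of human transcription factors. They bind DNA, often in transposable elements, through tandem C2H2 zinc fingers that are encoded in a long last exon, and they silence it through the corepressor TRIM28 and the H3K9 methyltransferase SETDB1. Their genes lie side by side in tandem arrays, mainly on chromosome 19, and their 3′ exons are known to carry H3K9me3 together with H3K36me3. SETD2 is the enzyme that places H3K36me3 along transcribed genes, and METTL14, a subunit of the m6A methyltransferase, is known to bind H3K36me3. In the RefSeq gene table of GRCh38.p14, used here for names and gene order only, 269 of 1451 protein-coding genes of chromosome 19 had a zinc finger symbol (18.5%), which is 44.5% of the 605 such genes in the genome. The symbols counted were those starting ZNF, ZFP, ZSCAN, ZIM, ZIK or ZBTB, and PEG3, and not all of these encode a KRAB domain. On chromosome 19, 213 of them stood in 18 unbroken runs of at least 5 neighbours, the longest being 27 genes from ZNF737 to ZNF681. Which gene, exon or strand partner each site lies in needs an hg19 annotation, which was not used here, so the label of the clusters could not be checked site by site, and the bases around the sites were not analysed here.

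Each site carries the authors' score, a whole number of 3 or more, whose meaning is not stated. It is read here as read depth, since the running numbers in the site names put all sites of a list in the order of a binomial probability computed with that depth. From this order the changed (C-to-T) reads of a site can be worked out as well. These numbers are called reconstructed C-to-T reads, since the lists hold no such column, and all 48 cluster entries had a single possible value. The background rate of the change was fitted per list so that as many sites as possible keep the binomial order. It came to 1.57% (control), 1.43% (hairpin 1) and 1.0% (hairpin 2). Intervals after a share are exact (Clopper-Pearson, 95%) and take in counting error alone, and reads of PCR libraries without molecular identifiers can be copies of one molecule. The sequencing depth of the libraries is unknown here.

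Zinc finger clusters made up a larger part of the chromosome 19 sites in both SETD2 knockdown lists than in control, but the differences did not pass the adjusted threshold. In control, 31 of 271 chromosome 19 sites lay in the clusters, or 11.4% (interval 7.91 to 15.8). With hairpin 1 there were 7 of 26, or 26.9% (11.6 to 47.8), and with hairpin 2 there were 10 of 48, or 20.8% (10.5 to 35.0). The odds ratio was 2.85 for hairpin 1 (p = 0.0334, adjusted p = 0.368, two-sided Fisher's exact test) and 2.04 for hairpin 2 (p = 0.0981, adjusted p = 0.368, two-sided Fisher's exact test). The adjustment was by Benjamini-Hochberg over 15 tests. Of all nuclear sites, the clusters held 0.831% in the control list, 1.53% in that of hairpin 1 and 1.49% in that of hairpin 2. Both comparisons use the same control list. Cluster 3, the stretch from 19.75 to 24.40 Mb, held 3 of the 7 and 6 of the 10 knockdown sites. It was left out because it held the most knockdown sites, so the knockdown shares were bound to fall. The shares then were 9.09% in control, 17.4% (hairpin 1) and 9.52% (hairpin 2), with little excess left for hairpin 2. Without cluster 6, chosen for holding the most control sites, they were 7.69% in control and 17.4% with each hairpin. With only sites of 10 or more reads, the share with hairpin 2 was 12.5% (3 of 24) against 9.39% in control.

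**Figure D1:**
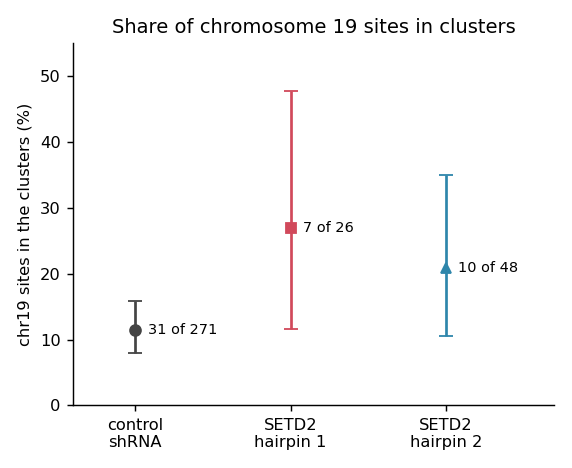
Share of chromosome 19 sites that lie in the zinc finger clusters (y axis, percent) in the pooled list of each shRNA, with 95% exact intervals and the number of sites. The knockdown shares of 26.9% and 20.8% lie above the 11.4% of control, and their intervals overlap the control interval.

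Sites were sparser in the clusters than elsewhere on the chromosome in control. The clusters held 2.41 control sites per Mb, against 5.26 per Mb in the rest of the 58.46 Mb between the first and the last listed site of chromosome 19. In the knockdown lists the clusters and the rest were closer, at 0.545 and 0.417 sites per Mb with hairpin 1 and 0.778 and 0.833 with hairpin 2. No test was made of these densities, and whether they follow the number of genes expressed there was not tested. Within the clusters the density in control ran from 6.67 sites per Mb in cluster 6 and 4 in cluster 2 to 0.556 in cluster 4.

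The share of well covered sites in the clusters was near that of the whole control list. The control score of the 31 cluster sites ran from 3 to 284 with a median of 12, against a median of 17.5 at the 240 other sites, where the highest was 1039. A score at or above the chromosome's median of 17 was found at 14 of 31 cluster sites and 124 of 240 others (45.2% against 51.7%, odds ratio 0.77, adjusted p = 0.948, Fisher's exact test), and at 46.6% of the whole control list. Among sites with at least 2 changed reads, with the median taken anew among them, the order turned. It was then 10 of 18 in the clusters and 71 of 142 elsewhere on the chromosome. With hairpin 1 the 7 cluster sites ran from 5 to 61 with a median of 17, against 20 for the others, and with hairpin 2 the 10 sites ran from 3 to 144 with a median of 7, against 15.5. Of the chromosome's summed score, 7.69% lay in the clusters in control, 11.2% for hairpin 1 and 6.98% for hairpin 2. These sums rest on single deep sites. Leaving out chr19:10244025 (minus, outside the clusters, 654 and 1877 reads in the knockdown lists) gave 20.7% for hairpin 1 and 15.1% for hairpin 2. Leaving out the deepest cluster site of each list instead gave 5.6% in control, 7.2% for hairpin 1 and 2.96% for hairpin 2. The deepest site elsewhere on the chromosome in control had 1039 reads, and without it the control value was 8.37%.

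Most cluster sites rested on few changed reads. In control 13 of 31 had 1 reconstructed C-to-T read, or 41.9% (24.5 to 60.9), against 98 of 240 others, or 40.8% (adjusted p = 1.0, Fisher's exact test), and 41.4% over the whole control list. The highest number at a cluster site was 8, against 28 elsewhere on the chromosome. In the knockdown lists 5 of 7 and 8 of 10 cluster sites had 1 changed read, where the whole lists had 63.9% and 60.5%. Elsewhere on chromosome 19 it was 14 of 19 sites with hairpin 1 and 27 of 38 with hairpin 2. A share of at least 90% changed reads was found at 3 of 31 control cluster sites (9.68%) and 12 of 240 others (5.0%), against 11.3% of the whole list (adjusted p = 0.84, Fisher's exact test). These 3 were shallow: chr19:9453060 (plus strand) with 3 of 3 reads, chr19:44410800 (plus) with 4 of 4 and chr19:53341814 (minus) with 6 of 6. None of them was in a knockdown list. The sites chr19:44410800 and chr19:9453060 were also the sole control sites of clusters 5 and 1. Among the knockdown sites of the clusters, such a share was found at 0 of 7 with hairpin 1 (5.73% of its whole list) and 1 of 10 with hairpin 2 (8.28%), at chr19:11868342 (minus strand) with 3 of 3 reads.

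Cluster 6 held the most control sites, 11, of which 8 were on the minus strand. The deepest were chr19:52568414 (minus), with 129 reads of which 1 was changed (0.775%), and chr19:52570653 (minus), with 127 reads of which 4 were changed (3.15%). These neighbours lay 2239 nt apart and had nearly equal coverage. A second minus-strand pair lay 164 nt apart: chr19:52519029 had 22 reads with 1 changed, and chr19:52519193 had 20 reads with 2 changed. The other 7 sites of the cluster had between 4 and 44 reads, the deepest being chr19:52660583 (minus, 44 reads with 2 changed) and chr19:53958317 (plus, 32 reads with 1 changed).

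Cluster 3 held 7 control sites with 7 to 59 reads, 5 of them on the minus strand. The deepest was chr19:23544176 (minus), with 5 changed reads among 59 (8.47%). A minus-strand pair lay 435 nt apart, chr19:24183674 with 2 changed of 28 reads (7.14%) and chr19:24184109 with 6 of 27 (22.2%). Cluster 2 held 4 control sites, among them the best covered of all, chr19:12688787 (minus), with 3 changed reads among 284 (1.06%). Cluster 7 held 6 shallow to moderate sites of 4 to 27 reads. They included the site with the most changed reads in the clusters, chr19:58379804 (plus), with 8 of 23 reads (34.8%), and chr19:57325638 (minus), with 5 of 27 (18.5%). The single control site of cluster 4, chr19:36612586 (plus), had 1 changed read of 8. It lay 12586 nt inside the cluster's border and chr19:12688787 lay 11213 nt inside. The nearest sites outside any border, at chr19:12740050, chr19:12740823 and chr19:12779013, had 5, 15 and 83 reads in control.

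**Figure D2:**
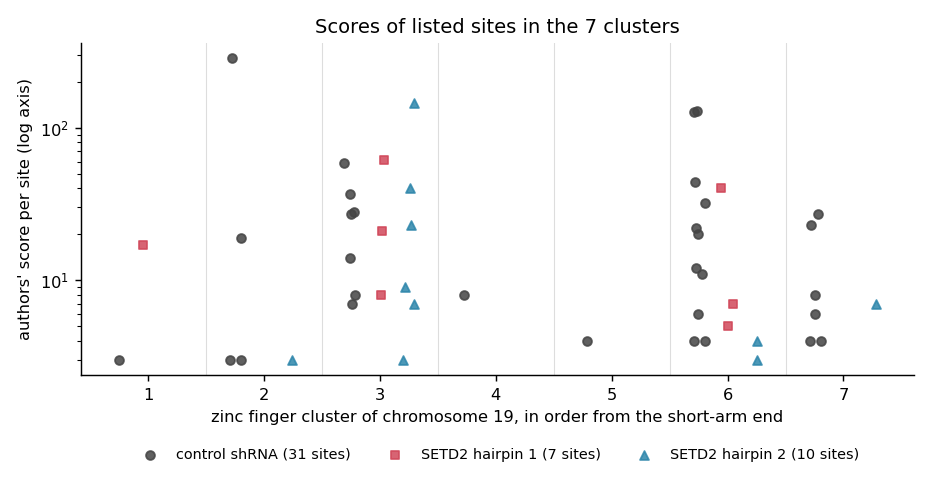
Authors' score of every listed site (y axis, log scale) in the 7 zinc finger clusters (x axis), for the control shRNA (31 sites), hairpin 1 (7) and hairpin 2 (10). Control sites fall in all clusters, while knockdown sites fall mainly in cluster 3, with 3 and 6, and cluster 6, with 3 and 2.

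Few control sites of the clusters recurred at their exact base in a knockdown list. With hairpin 1, 2 of 31 recurred, or 6.45% (0.791 to 21.4), against 10 of 240 other chromosome 19 sites (4.17%) and 5.99% of the whole control list (adjusted p = 0.951, Fisher's exact test). With hairpin 2 it was also 2 of 31, against 16 of 240 (6.67%) and 6.5% of the whole list (adjusted p = 1.0, Fisher's exact test). Both sites that recurred with hairpin 1 were in cluster 6 and both that recurred with hairpin 2 were in cluster 3, so 4 of 31 recurred with either hairpin, or 12.9% (3.63 to 29.8), against 22 of 240 (9.17%) and 10.3% of the whole list (adjusted p = 0.948, Fisher's exact test). No control site of the clusters was found with both.

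All 4 recurring cluster sites had 20 or more reads in control. Below that, recurrence was 0 of 14 cluster sites with 3 to 9 reads, with an exact upper limit of 23.2%, and 0 of 4 with 10 to 19, with a limit of 60.2%. The other chromosome 19 sites also had 0 of 76 and 0 of 49, with exact upper limits of 4.74% and 7.25%. Over the whole control list 2.03% and 3.52% of sites in these classes recurred. At 20 to 99 reads, 3 of 10 cluster sites recurred (30.0%, interval 6.67 to 65.2) against 8 of 86 others (9.3%, 4.1 to 17.5), a difference that did not pass (odds ratio 4.18, p = 0.0864, adjusted p = 0.368, Fisher's exact test). The whole list had 14.1% in this class, which is above the other chromosome 19 sites and within the interval of the clusters. For the deepest class, 100 reads and above, the counts were 1 of 3 and 14 of 29, against 38.2% of the whole list.

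**Figure D3:**
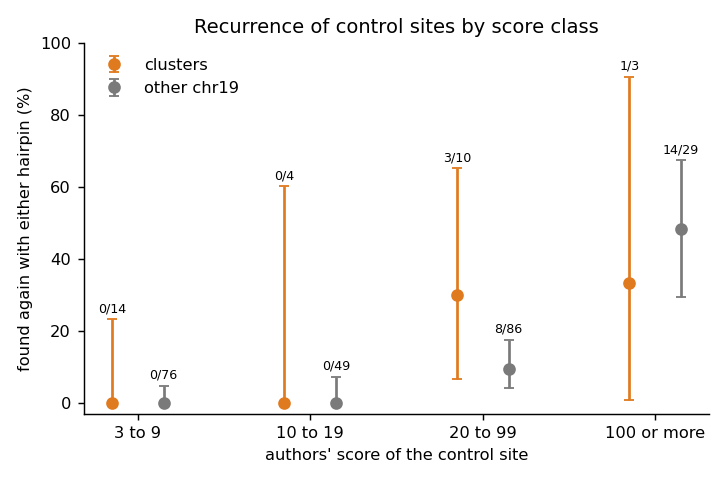
Share of control sites found again at the same base with either hairpin (y axis, percent), by control score class (x axis), for cluster sites and other chromosome 19 sites, with 95% exact intervals and numbers of sites. No site under a score of 20 recurred in either group, and the intervals of the 2 groups overlap in every class.

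Scores fell less at the 4 shared cluster sites than at most other shared sites of the chromosome. At chr19:52570653 (minus, cluster 6) coverage went from 127 reads in control to 40 with hairpin 1, 3.17-fold lower, with 4 and 3 changed reads (3.15% and 7.5%). At chr19:52519029 (minus, cluster 6) it went from 22 to 7 with hairpin 1, 3.14-fold lower, with 1 changed read in each (4.55% and 14.3%). At chr19:23544176 (minus, cluster 3) it went from 59 to 40 with hairpin 2, 1.48-fold lower, with 5 and 1 changed reads (8.47% and 2.5%). At chr19:24184109 (minus, cluster 3) it went from 27 to 7 with hairpin 2, 3.86-fold lower, with 6 and 2 changed reads (22.2% and 28.6%). The intervals of the changed share overlapped between control and knockdown at each of the 4 sites.

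At the other chromosome 19 sites shared with control, coverage was 10.7-fold lower at the median of 10 sites with hairpin 1 and 13.8-fold lower at the median of 16 with hairpin 2. Over all shared sites of the lists the medians were 7.01-fold and 4.93-fold. With hairpin 1 the log2 ratios of the cluster sites, -1.65 and -1.67, lay outside the range of the 10 other chromosome 19 sites, -4.19 to -2.33. They lay well inside that of all 225 shared sites of this hairpin, -8.13 to 3.3. With hairpin 2 the cluster sites had -1.95 and -0.56, inside the range of the other chromosome 19 sites, -5.48 to 1.16, and of all shared sites, -7.34 to 2.78. The other chromosome 19 sites were deeper in control, so the comparison was repeated for those with no more than 127 control reads. There coverage was 5.67-fold to 13.3-fold lower at 5 sites with hairpin 1, and had a median of 12.2-fold lower at 7 sites with hairpin 2, of which 1 was higher in the knockdown. With 2 cluster sites per hairpin no test was made. A shared site needs at least 3 reads in the knockdown list, so shallow sites that fell further cannot appear here.

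**Figure D4:**
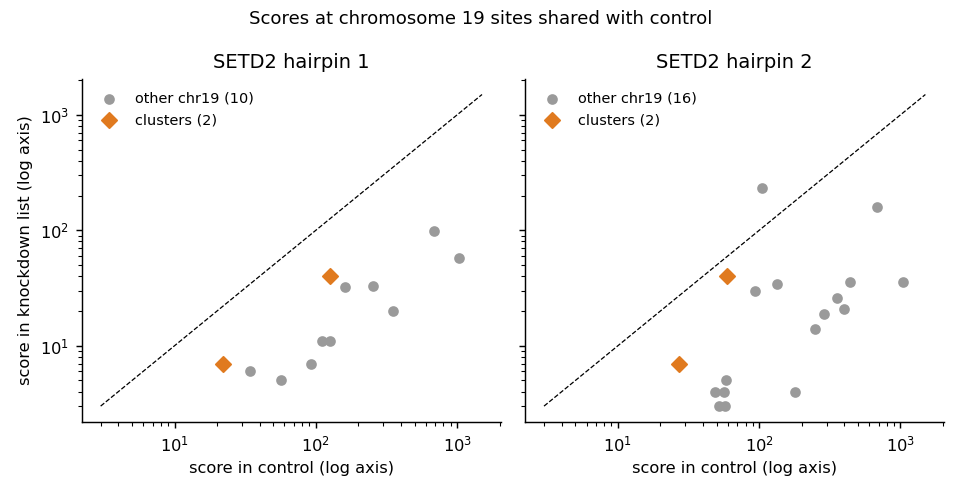
Authors' score in a knockdown list (y axis, log scale) against control (x axis, log scale) at chromosome 19 sites found in both, for hairpin 1 and hairpin 2, with cluster sites as diamonds and a dashed line of equal scores. The cluster sites lie 3.17-fold and 3.14-fold below the line with hairpin 1 and 3.86-fold and 1.48-fold below it with hairpin 2, nearer to it than most other sites.

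The deepest control sites of the clusters that neither knockdown list held were chr19:12688787 (minus, 284 reads), chr19:52568414 (minus, 129), chr19:52660583 (minus, 44), chr19:21475858 (minus, 37) and chr19:53958317 (plus, 32). Their changed shares in control were 1.06%, 0.775%, 4.55%, 8.11% and 3.12%, on 3, 1, 2, 3 and 1 changed reads. The 2 deepest were thus below the fitted background rate of 1.57%, which their intervals (0.218 to 3.06 and 0.0196 to 4.24) include. The site chr19:52568414 was missing from the hairpin 1 list although its similarly covered neighbour chr19:52570653 was in it. A list holds a site only with at least 1 changed read, so absence does not show that the position was uncovered.

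Most knockdown sites of the clusters were at positions that the control list did not hold. With hairpin 1 it was 5 of 7, or 71.4% (29.0 to 96.3), against 9 of 19 other chromosome 19 sites (47.4%) and 53.3% of the whole list (adjusted p = 0.84, Fisher's exact test). With hairpin 2 it was 8 of 10, or 80.0% (44.4 to 97.5), against 22 of 38 (57.9%) and 65.0% of the whole list (adjusted p = 0.84, Fisher's exact test). The deepest with hairpin 1 were chr19:21305402 (plus, 61 reads), chr19:21301519 (plus, 21) and chr19:9676634 (minus, 17), and with hairpin 2 chr19:23543672 (minus, 144), chr19:21990419 (minus, 23) and chr19:23675653 (minus, 9). Each of these 6 rested on 1 changed read, a share of 1.64%, 4.76%, 5.88%, 0.694%, 4.35% and 11.1% in that order. The remaining knockdown positions absent from control had 3 to 8 reads.

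One position outside the control list was shared by the hairpins, chr19:21301519 (plus, cluster 3), with 1 changed read of 21 with hairpin 1 and 1 of 3 with hairpin 2. It lay 810 nt from the control site chr19:21300709 (plus), which had 2 changed reads of 14, and 3883 nt from the hairpin 1 site chr19:21305402. All 3 lists thus had a site within this stretch of the plus strand, and the control site was at a base that neither hairpin list held.

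Other knockdown sites also lay close to control sites without sharing their base. The hairpin 1 site chr19:21475796 (minus, 8 reads) lay 62 nt from the control site chr19:21475858, and the hairpin 2 site chr19:23543672 lay 504 nt from chr19:23544176, which control and hairpin 2 share. When any knockdown site within 5000 nt on the same strand was counted, a distance chosen after seeing the data, 9 of 31 control cluster sites had one (29.0%), against 43 of 240 other chromosome 19 sites (17.9%) and 17.3% of the whole list (adjusted p = 0.351, Fisher's exact test). By hairpin it was 6 of 31 against 17 of 240 with hairpin 1 (19.4% against 7.08%, adjusted p = 0.168, Fisher's exact test) and 4 of 31 against 35 of 240 with hairpin 2 (12.9% against 14.6%, adjusted p = 1.0, Fisher's exact test). Among control sites with 20 to 99 reads the counts were 6 of 10 in the clusters and 16 of 86 elsewhere (60.0% against 18.6%, p = 0.00867, adjusted p = 0.13, Fisher's exact test), where the whole list had 22.7%. The 6 include both sites of the pair chr19:24183674 and chr19:24184109, and of the pair chr19:52519029 and chr19:52519193. Each pair was near a single knockdown site, so its sites are not independent, though the test counts them so.

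Joined at this distance, the cluster sites of the 3 lists formed 35 loci. Control sites were in 27 of them, 6 of which also had a knockdown site (22.2%), while 21 had control sites only. On the rest of chromosome 19 it was 26 of 188 control loci (13.8%). Loci with knockdown sites only made up 8 of 35 in the clusters (22.9%) and 18 of 206 elsewhere (8.74%). These shares were not tested, have no value for the whole series beside them, and rest on the same few knockdown sites as the comparisons above. The 6 cluster loci with both kinds of site were all in clusters 3 and 6.

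Close neighbours of control sites were compared next, and the difference did not pass. A same-strand control neighbour within 1000 nt was found for 4 of 31 cluster sites, or 12.9% (3.63 to 29.8), against 72 of 240 others, or 30.0% (24.3 to 36.2), and 18.4% of the whole list (odds ratio 0.346, p = 0.0552, adjusted p = 0.368, Fisher's exact test). All 4 had 20 or more reads. When site and neighbour both needed that depth, the order turned. It was then 4 of 13 in the clusters (30.8%) and 33 of 115 elsewhere (28.7%). Shallow neighbours were lost by this limit, which could lower only the count elsewhere. The 4 were the pairs at 164 nt in cluster 6 and 435 nt in cluster 3, and the clusters held 0 groups of 3 or more control sites. A C2H2 zinc finger with its linker is encoded by 28 codons, or 84 nt, and repeats in tandem. Of 8 same-strand gaps of up to 5000 nt between neighbouring cluster positions of any list, 1 was a whole multiple of 84 nt. It was the gap of 504 nt, 6 repeats, between chr19:23543672 and chr19:23544176. The site chr19:23543672 had 1 changed read of 144 with hairpin 2 (0.694%, interval 0.0176 to 3.81). This was below the fitted background rate of 1.0% for that list, which the interval includes. The other 7 gaps left remainders of 15 to 80 nt. No such count is given for gaps elsewhere, and whether 1 of 8 is unusual was not tested. Whether any of these sites lies in a zinc finger array was not analysed here.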

How the data were processed

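The deposited lists give, per site, chromosome, position, strand, a name with a running number and the authors' score, in hg19. Per the submitters' processing notes, FastQC 0.11.5, cutadapt 1.13 and Bowtie 1.1.2 were used. The site names point to the caller rbsSeeker and to C-to-T changes. How replicates were pooled, and the caller's version and filters, were not given in the sources used here.

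Here, C-to-T reads were reconstructed from the order of running numbers with a binomial rate, fitted per list to place as many sites as possible. All 3755, 482 and 697 sites could be placed, with a single value at 98.6%, 97.7% and 97.0%. On lists simulated with the same assumed order and with the rate given, each single value was right, which that set-up ensures. It does not check the reading of the score, the order of the deposited lists or the fitted rate. Sites matched at the same position and strand. Fisher's exact tests (two-sided) on numbers of sites were Benjamini-Hochberg adjusted over 15 tests at a threshold of 0.05. The clusters, tests and site rule were chosen with earlier results of these data known. Sites named are those in 2 lists, the deepest control site per cluster, the 5 deepest control sites in neither knockdown list, the 3 deepest knockdown sites outside control per hairpin, and control groups of 3 or more. Others were named after their values were seen, such as neighbours of these, sites with a share of at least 90% and sites near borders. Alternatives changed minimum score, borders, comparison group, merging, matching and neighbour distances, and clusters used. Counts for gene lists, motifs and transcript regions were not made, for want of an hg19 annotation. Python 3.11.15, numpy 2.4.6, scipy 1.17.1, pandas 2.3.3 and matplotlib 3.10.9 were used.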

Additional observations from a re-analysis of the deposited data

How the results depend on the processing

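No paired analysis was possible because the deposited lists pool the replicates of each shRNA, and for the same reason no replicate could be left out. In all, 146 differences were recomputed, either between clusters and other sites or between the cluster shares of knockdown and control. Of these, 106 kept their direction, 20 changed it and 20 had none because the value or its alternative was 0. None passed the adjusted threshold under any alternative run. Matching within 10 nt left every count as it was, as did counting sites by their bounds of C-to-T reads. The higher cluster share in both knockdown lists kept its direction in every alternative, between 8.3 and 17.3 percentage points of chromosome 19 sites for hairpin 1 and between 0.433 and 9.7 for hairpin 2. As shares of all nuclear sites, a different denominator, the differences were 0.697 and 0.659. The cause of the changes in direction below was not tested. Differences are clusters minus other sites, in percentage points. Limits on score or C-to-T reads were applied to all 3 lists first. A matching or neighbouring site therefore had to pass the limit too, and a knockdown site whose control counterpart failed it counted as not in control. The median score was taken anew among the sites kept. With a score of at least 10, the share of sites with 1 C-to-T read came to -5.56 and that of shares of at least 0.9 to -0.61. With a score of at least 20, recurrence with hairpin 2 came to 0.736, 1 C-to-T read to -17.8, same-strand neighbours to 2.07 and recurrence at 100 reads or more to 2.3. Wider borders gave -3.11 for 1 C-to-T read. Against all other nuclear sites, recurrence with hairpin 2 came to 0.234 and shares of at least 0.9 to -1.66. Without cluster 6, recurrence came to -4.17 with hairpin 1 and 3.33 with hairpin 2, and 1 C-to-T read to -5.83. The next alternatives were chosen after seeing the data. Matching within 5000 nt gave -8.27 for hairpin 1 sites not in control and 4.6 for recurrence at 100 reads or more. With at least 2 C-to-T reads, recurrence with hairpin 2 came to 2.74, sites not in control to -30.0 and -13.6, scores at or above the median to 5.56 and recurrence at 100 reads or more to 37.0. Without cluster 3, recurrence with either hairpin came to -0.833. The small number of listed sites limits these comparisons, with 31, 7 and 10 in the clusters. The exact interval of the cluster share runs from 11.6 to 47.8% with hairpin 1 and from 10.5 to 35.0% with hairpin 2.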
